A study of Homo sapiens with 12 samples.

Results

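The genes described here are 36 genes of glycolysis and of the response to low oxygen, chosen by name. They are the glucose and lactate carriers SLC2A1, SLC2A3, SLC16A1 and SLC16A3, the glycolytic enzymes and their regulators from hexokinase to lactate dehydrogenase, the pyruvate dehydrogenase kinases PDK1 and PDK3, the oxygen sensors EGLN1 and EGLN3 with the factor HIF1A, and 7 genes that are well known targets of low oxygen. All probes annotated to them were taken over all 12 arrays. Of the 36 genes 33 had a named probe, 60 probes in all, out of 20045 genes with a named probe. Of these probes 46 passed the detection filter, that is a detection p-value under 0.05 on at least 3 arrays, and they gave 29 genes among the 11139 tested. No probe was named to SLC16A1, SLC16A3 or CA9 here. PDK1, EGLN3 and ANKRD37 were detected on 0 of the 12 arrays and EGLN1 on 1, so neither of the oxygen-sensing hydroxylases among these genes was tested.

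NT2/D1 cells come from a human testicular cancer and have the traits of pluripotent embryonal carcinoma. They were grown here in medium with serum, and their messenger RNA was measured on Illumina HumanHT-12 v4 bead arrays. The labels give 4 groups of 3 arrays each, which are control, 5-aza deoxycytidine (5-aza) at 10 nM for 1 day, 5-aza at that dose for 3 days, and cisplatin at 0.5 µM over 6 hours with a further 24 hours off the drug. By the methods of the study 5-aza was renewed daily unless stated otherwise. 5-aza is a cytidine analog that traps DNA methyltransferases on DNA, and cisplatin is a platinum drug that crosslinks DNA. The controls are untreated cells per the labels but vehicle treated per the series description, and the study describes its groups as biological triplicates. The labels themselves do not tell which cultures the replicates came from, and the p-values reflect the spread between these arrays. All 12 arrays lay on 1 chip, group by group, so that position on the chip and group cannot be told apart. The same control group, whose labels give no day, served every comparison with control, so days of 5-aza and time in culture cannot be told apart. Oxygen tension was not among the treatments.

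Glycolysis splits glucose into pyruvate and yields a little ATP without oxygen, and lactate dehydrogenase turns the pyruvate into lactate when it is not sent to the mitochondria. Cells with oxygen hydroxylate HIF1A through the EGLN enzymes, which marks the protein for destruction, and cells without oxygen keep it, so that it binds short hypoxia response elements and raises many glycolytic genes along with VEGFA, ADM, BNIP3 and NDRG1. Pluripotent cells are known for a high rate of glycolysis even with oxygen present. The arrays measure messenger RNA, not the HIF1A protein through which oxygen acts.

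Promoters are shown for the members of opposite direction on which the 3 day comparison turned. The table of RefSeq promoters (GRCh38.p14, 250 bases before to 50 after each annotated start) matched 30 of the 36 genes, with 57 starts. The core letters of the hypoxia response element, ACGTG and GCGTG, were searched on both strands, and so was the E-box CACGTG, which holds ACGTG on either strand and therefore counts as 2 cores. At least 1 core was present in 38 of the 57 member windows (66.7%), against 48.4% of all 35116 promoter windows in the table. ACGTG alone was in 40.4% of the member windows and 21.4% of all, GCGTG in 40.4% and 36.5%, and the E-box in 14% and 7.26%. Starts of the same gene overlap in part, so the 57 windows are not independent, and a match says only that these letters are there.

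The 250 bases before the start are printed 5′ to 3′ on the strand of the gene, with cores and E-boxes in capitals. The genes are BNIP3, ADM and ENO2, which were higher after 3 days of 5-aza, and HK2 and LDHA, which were lower.
BNIP3, chr10:131981924-131982173, minus strand: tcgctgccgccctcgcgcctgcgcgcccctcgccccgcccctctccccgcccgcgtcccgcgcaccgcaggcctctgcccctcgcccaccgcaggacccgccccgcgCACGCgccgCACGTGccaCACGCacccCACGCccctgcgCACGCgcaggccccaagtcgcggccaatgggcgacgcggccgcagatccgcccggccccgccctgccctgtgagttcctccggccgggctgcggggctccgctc
ADM, chr11:10304823-10305072, plus strand: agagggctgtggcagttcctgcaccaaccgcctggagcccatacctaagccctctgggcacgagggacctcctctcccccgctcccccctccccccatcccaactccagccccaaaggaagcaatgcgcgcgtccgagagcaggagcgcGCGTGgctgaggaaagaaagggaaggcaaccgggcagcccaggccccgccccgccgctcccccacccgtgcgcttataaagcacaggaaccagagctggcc
ENO2, chr12:6914330-6914579, plus strand: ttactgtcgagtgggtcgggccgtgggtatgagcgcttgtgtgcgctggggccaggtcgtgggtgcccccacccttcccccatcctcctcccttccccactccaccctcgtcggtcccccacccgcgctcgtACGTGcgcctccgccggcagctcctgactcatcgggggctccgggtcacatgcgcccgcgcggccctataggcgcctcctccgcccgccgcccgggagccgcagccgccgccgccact
HK2, chr2:74833877-74834126, plus strand: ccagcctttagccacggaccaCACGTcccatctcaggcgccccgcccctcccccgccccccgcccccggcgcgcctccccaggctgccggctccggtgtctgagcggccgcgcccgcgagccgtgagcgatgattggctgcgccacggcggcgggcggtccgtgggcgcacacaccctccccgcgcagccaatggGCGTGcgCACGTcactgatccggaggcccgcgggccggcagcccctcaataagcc
LDHA, chr11:18394313-18394562, plus strand: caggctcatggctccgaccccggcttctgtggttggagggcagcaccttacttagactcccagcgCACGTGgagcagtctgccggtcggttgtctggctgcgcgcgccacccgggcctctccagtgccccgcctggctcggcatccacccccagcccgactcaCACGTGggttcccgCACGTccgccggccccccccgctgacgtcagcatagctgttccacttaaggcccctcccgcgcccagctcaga
Genes of both directions held cores. BNIP3 had 6 cores with 1 E-box, while ADM and ENO2, which moved the same way as BNIP3, had 1 each. HK2 had 3 cores before the start shown, which is the outer of its 2 annotated starts, and 6 with 2 E-boxes before the inner one. LDHA had 5 with 2 E-boxes before its outer start, shown here, and 1 before its inner start. Of the other members that passed the 3 day test and were searched, PFKFB4 had 1 core, and HIF1A had 1 at the outer of its 2 starts and 0 at the inner.

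After 3 days of 5-aza 4 targets of low oxygen were higher, while in the glycolytic chain 2 genes were higher and 2 lower. NDRG1, PFKFB4, ENO2, BNIP3 and ADM rose by 1.66-fold to 3.09-fold and VEGFA by at least 1.6-fold, and HK2, LDHA and HIF1A itself fell, by 1.51-fold to 2.18-fold. Of the 29 members tested 6 were higher and 3 lower at an adjusted p under 0.05 (limma, Benjamini-Hochberg over all 11139 genes), against 10.5% of all genes called higher and 6.56% called lower. The median log2 difference of the 29 was −0.03, beside 0.01 for all genes. All values below are log2 intensities after background correction and quantile normalization, and differences are given ± the standard error of the model with n = 3 arrays per group.

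**Figure D1:**
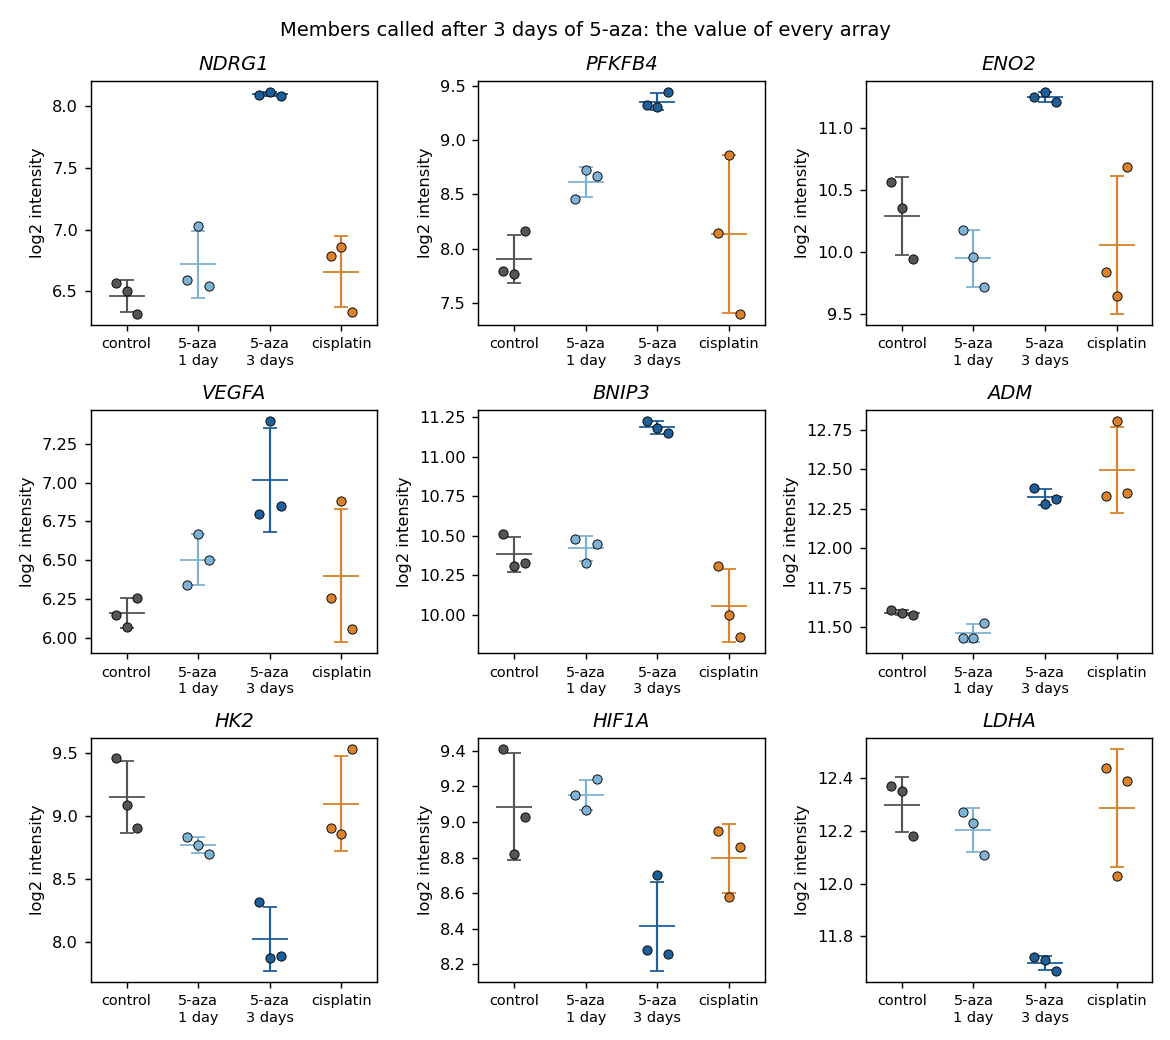
Log2 intensity of the 9 members called after 3 days of 5-aza, in each of the 12 arrays. Points are single arrays, the horizontal line is the group mean and the bar 1 SD (n = 3). NDRG1 lies at 8.08 to 8.11 after 3 days and at or below 7.03 on every other array, and ADM is the panel in which the cisplatin arrays rise beside the 3 day arrays.

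Among the targets of low oxygen, NDRG1, a cytoplasmic protein of differentiation and stress, had the largest difference of all members in the fit used here. Its values were 6.57, 6.50 and 6.32 in controls, 6.59, 7.03 and 6.54 after 1 day, 8.09, 8.11 and 8.08 after 3 days, and 6.79, 6.86 and 6.33 with cisplatin. The 3 day arrays stood above all 9 others with no overlap. The difference from control was 1.63 ± 0.18 (3.09-fold, adjusted p = 4.9e-05, limma). All control arrays detected NDRG1, but close to their lowest detected signals of 6.297, 6.447 and 6.277. Over the alternatives described below its difference ranged from 0.943 to 1.682, while that of PFKFB4 was 1.096 or more. NDRG1 was therefore not the largest under every alternative.

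BNIP3 encodes a mitochondrial receptor that marks mitochondria for autophagy. It read 10.51, 10.31 and 10.33 in controls, 10.48, 10.33 and 10.45 after 1 day, 11.23, 11.18 and 11.15 after 3 days, and 10.31, 10.00 and 9.86 with cisplatin. Here too the 3 day arrays lay above every other array, while the cisplatin arrays lay at or below the controls. The 3 day difference was 0.80 ± 0.15 (1.74-fold, adjusted p = 0.00276, limma).

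BNIP3L, the close relative of BNIP3 with the same role in mitophagy, did not share its rise. The 3 day arrays at 9.40, 9.62 and 9.27 straddled the controls at 9.57, 9.39 and 9.41 (difference −0.03 ± 0.17, adjusted p = 0.936, limma). The cisplatin arrays at 9.15, 8.63 and 9.03 were all below the controls (−0.52 ± 0.17, adjusted p = 0.119, limma), which did not pass.

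ADM encodes adrenomedullin, a secreted vasodilator peptide. Control arrays read 11.61, 11.59 and 11.58, 1 day arrays 11.43, 11.43 and 11.53, 3 day arrays 12.38, 12.28 and 12.31, and cisplatin arrays 12.33, 12.81 and 12.35. The 3 day and cisplatin arrays overlapped each other and both lay above every control and 1 day array. The difference from control was 0.73 ± 0.15 after 3 days (1.66-fold, adjusted p = 0.00536, limma), and with cisplatin it was 0.91 ± 0.15 (1.87-fold, adjusted p = 0.0104, limma).

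VEGFA, the growth factor of blood vessels, was near the detection limit. It was detected on 0 of 3 control arrays, 2 of 3 after 1 day, 3 of 3 after 3 days and 1 of 3 with cisplatin, at 6.80, 7.40 and 6.85 after 3 days against measured control values of 6.15, 6.07 and 6.26. Because no control array detected it, the rise is a lower bound of at least 1.6-fold (adjusted p = 0.017, limma), set against the lowest signal of any detected probe on each control array. The fitted difference of 0.86 ± 0.22 depends on the offset, and the other 2 VEGFA probes were detected on 0 arrays.

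In the glycolytic chain itself, 2 enzymes rose. PFKFB4 makes and breaks fructose 2,6-bisphosphate, the activator of phosphofructokinase, and is a known target of HIF1A. Its values were 7.79, 7.77 and 8.16 in controls, 8.46, 8.72 and 8.67 after 1 day, and 9.32, 9.30 and 9.44 after 3 days, with 8.14, 8.86 and 7.40 under cisplatin. The 3 groups along 5-aza treatment did not overlap one another, while the cisplatin arrays spread across controls and 1 day. The difference from control was 1.45 ± 0.27 after 3 days (2.73-fold, adjusted p = 0.00265, limma) and 0.71 ± 0.27 after 1 day (adjusted p = 0.862, limma), the latter not passing.

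ENO2, the enolase of neurons, read 10.57, 10.36 and 9.95 in controls, 10.18, 9.96 and 9.72 after 1 day, 11.25, 11.29 and 11.21 after 3 days, and 9.84, 9.65 and 10.69 with cisplatin. The 3 day arrays were the highest of the 12, and the 1 day arrays overlapped the controls from below. The difference was 0.96 ± 0.25 (1.94-fold, adjusted p = 0.017, limma). ENO1, the ubiquitous enolase, went from 14.12, 14.30 and 14.33 in controls to 13.91, 14.10 and 14.17 after 3 days, which overlap (−0.19 ± 0.15, adjusted p = 0.422, limma).

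HK2, the inducible hexokinase that traps glucose in the cell, fell most. It read 9.46, 9.09 and 8.90 in controls, 8.83, 8.77 and 8.70 after 1 day, 8.32, 7.87 and 7.89 after 3 days, and 8.90, 8.86 and 9.53 with cisplatin. On this probe, the brighter of 2, all 3 day arrays lay below all others, and the cisplatin arrays stood with the controls. The difference was −1.12 ± 0.21 (2.18-fold lower, adjusted p = 0.00253, limma). HK1, the constitutive hexokinase, had overlapping values in control and 3 day arrays (−0.08 ± 0.15, adjusted p = 0.766, limma).

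LDHA, the subunit of lactate dehydrogenase that favors lactate, read 12.37, 12.35 and 12.18 in controls, 12.27, 12.23 and 12.11 after 1 day, 11.72, 11.71 and 11.67 after 3 days, and 12.44, 12.03 and 12.39 with cisplatin. Every 3 day array was below every other array. The difference was −0.60 ± 0.15 (1.51-fold lower, adjusted p = 0.0149, limma). LDHB, the other main subunit, stood at 14.19, 14.02 and 13.98 against controls of 14.02, 14.16 and 14.12 (−0.04 ± 0.15, adjusted p = 0.891, limma), and these arrays overlapped.

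HIF1A, the oxygen-regulated subunit of hypoxia-inducible factor, read 9.41, 8.82 and 9.03 in controls, 9.15, 9.07 and 9.24 after 1 day, 8.28, 8.70 and 8.26 after 3 days, and 8.95, 8.58 and 8.86 with cisplatin. The 3 day arrays were below all control and 1 day arrays and overlapped the lowest cisplatin array. The difference was −0.68 ± 0.19 (1.6-fold lower, adjusted p = 0.0244, limma).

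**Figure D2:**
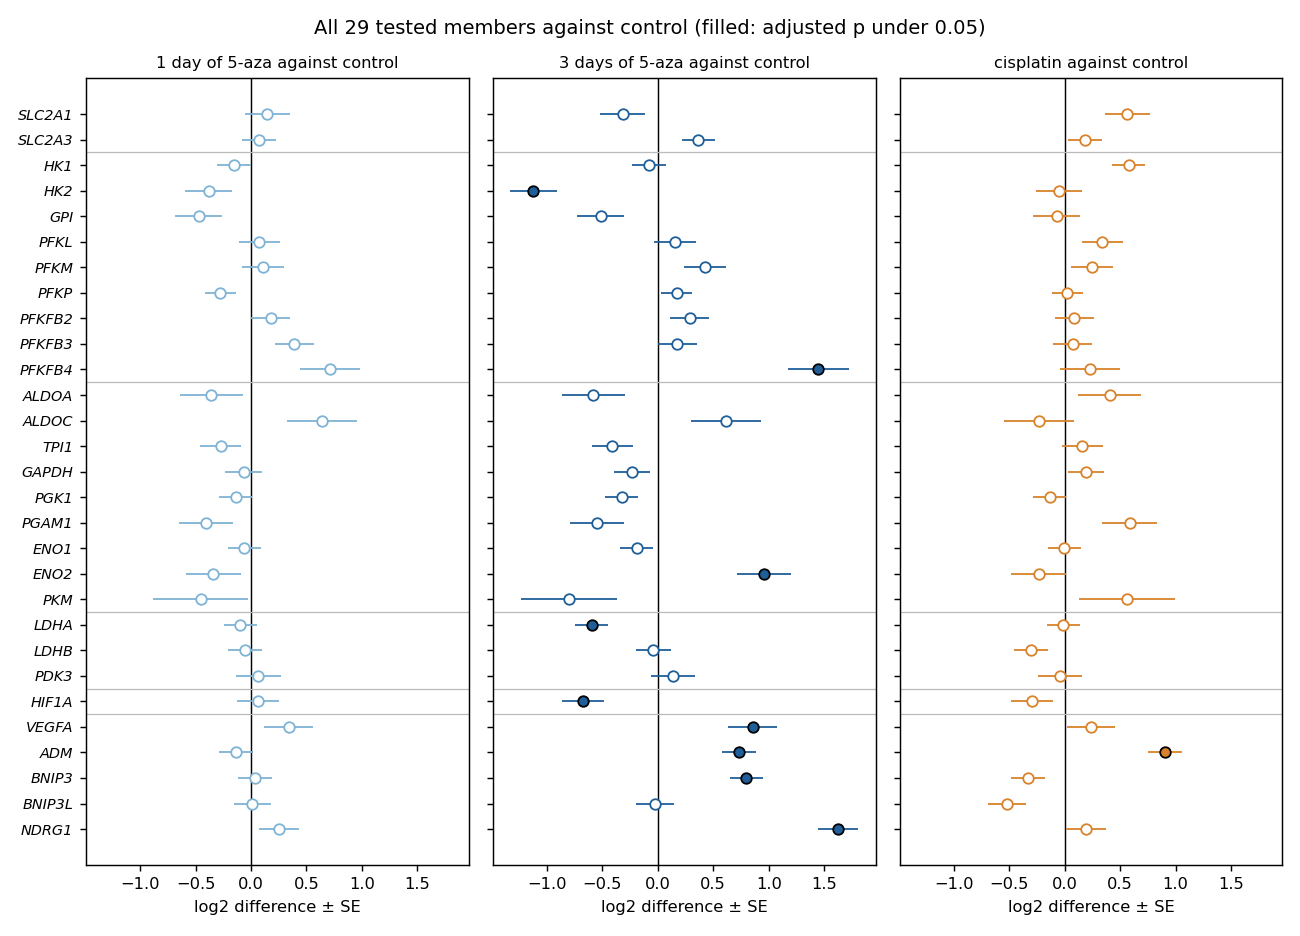
Log2 difference from control ± SE for the 29 tested members, in the 3 comparisons with control (n = 3 arrays per group). Filled points passed an adjusted p under 0.05, and grey lines separate the roles. In the 3 day panel 6 filled points lie right of 0 and 3 left, the 1 day panel has 0 filled points, and ADM is the filled point with cisplatin.

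Of the 9 genes between aldolase and pyruvate kinase 7 had negative differences, 6 of them with all 3 day arrays below all controls, where 22.3% of all genes did not overlap downward, and ENO2 was the member that passed, upward. PKM, the pyruvate kinase of most tissues, differed by −0.80 ± 0.43 (adjusted p = 0.23), ALDOA by −0.58 ± 0.28 (0.182), PGAM1 by −0.55 ± 0.25 (0.148), TPI1 by −0.41 ± 0.18 (0.148), PGK1 by −0.32 ± 0.15 (0.158) and GAPDH by −0.23 ± 0.16 (0.368), all adjusted p-values from limma. ALDOC, the aldolase of brain, was the other gene above control with 10.25, 10.32 and 10.22 against 9.18, 9.92 and 9.84 (0.62 ± 0.32, adjusted p = 0.207, limma).

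Upstream, GPI, which turns glucose 6-phosphate into fructose 6-phosphate, differed by −0.52 ± 0.21 (adjusted p = 0.111, limma), with its 3 day arrays below all controls. The phosphofructokinase subunits PFKL, PFKM and PFKP differed by 0.15, 0.43 and 0.17, and the bifunctional regulators PFKFB2 and PFKFB3 by 0.29 and 0.18, none passing. The glucose carriers stood on opposite sides, SLC2A1 at −0.32 ± 0.20 (adjusted p = 0.319, limma) and SLC2A3 at 0.37 ± 0.15 (adjusted p = 0.117, limma). For both carriers the 3 day arrays did not overlap the controls. PDK3, which inhibits pyruvate dehydrogenase, differed by 0.14 ± 0.20 on its brighter probe and by −0.21 ± 0.19 on its dimmer one, neither passing.

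Over the 29 members the 3 day and control arrays did not overlap for 9 genes that were higher and 11 that were lower, where 26.3% of all genes did not overlap upward and 22.3% downward. How many members passed depended on the cisplatin arrays, which share the variance of the fit. Their median standard deviation over all genes was 0.356, against 0.173 in controls, 0.123 after 1 day and 0.129 after 3 days, and over the members 0.323 against 0.149, 0.101 and 0.0966. A fit without the cisplatin arrays called 18 members, 9 higher and 9 lower, against 20.8% of all genes higher and 17.5% lower. The added calls were SLC2A3, PFKM and ALDOC upward and PKM, ALDOA, PGAM1, GPI, TPI1 and PGK1 downward, with adjusted p from 0.00227 for PGAM1 to 0.0492 for PGK1 (limma).

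**Figure D3:**
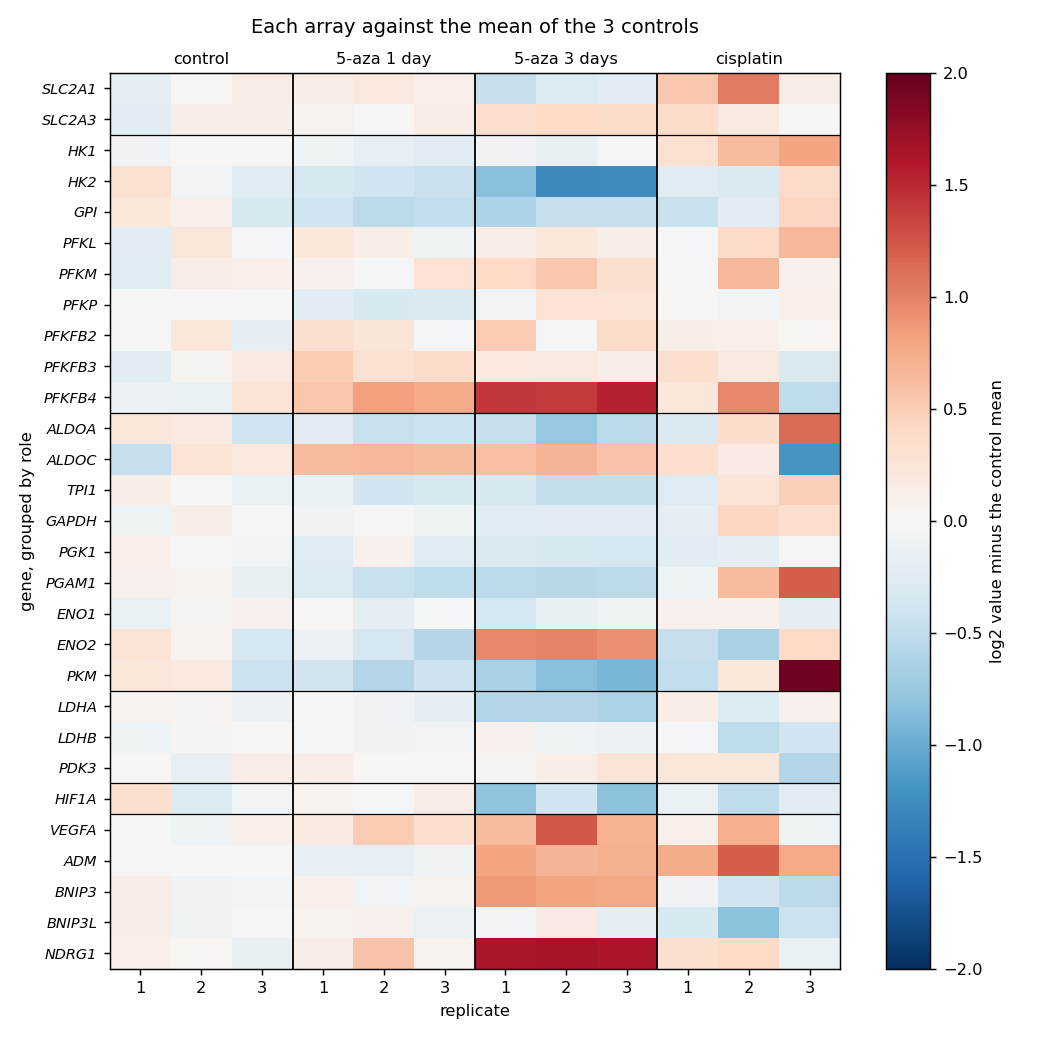
Log2 value of each tested member on each array minus the mean of the 3 controls, with genes in rows by role and arrays in columns by group. The median SD of the members is 0.0966 in the 3 day columns and 0.323 in the cisplatin columns, with PKM under cisplatin at 10.02, 10.73 and 12.45 in replicates 1 to 3.

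Of the 29 tested members 13 had more than 1 kept probe, each tested over all kept probes. All 3 HIF1A probes were lower after 3 days than in controls, by 0.68, 0.83 and 1.02 in log2 units, and all passed against control (adjusted p = 0.0329 and 0.0196 for the dimmer 2, limma). The second HK2 probe was lower too (−0.84 ± 0.20, adjusted p = 0.0154, limma), with 8.03, 7.75 and 7.96 against controls of 8.75, 8.77 and 8.74. On that probe the cisplatin arrays, at 8.589, 8.385 and 7.84, were also below the controls, and the lowest lay among the 3 day arrays. The cisplatin difference from control did not pass there (−0.48 ± 0.20, adjusted p = 0.206, limma). The second LDHA probe, at −0.52 ± 0.22 (adjusted p = 0.149, limma), had the same direction and did not pass.

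PGK1, the phosphoglycerate kinase that makes the ATP of this segment, differed by probe. Its dimmer probe read 11.36, 11.49 and 11.48 after 3 days against controls of 12.03, 12.21 and 12.09 and passed (−0.66 ± 0.20, adjusted p = 0.0453, limma), while the brighter one that stands for the gene did not. The 3 PKM probes all had negative differences after 3 days (−0.80, −1.12 and −1.05) and the 3 GAPDH probes too (−0.23, −0.21 and −0.34), none passing. NDRG1, PFKFB4, ENO2, BNIP3 and ADM rest on 1 probe each.

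**Figure D4:**
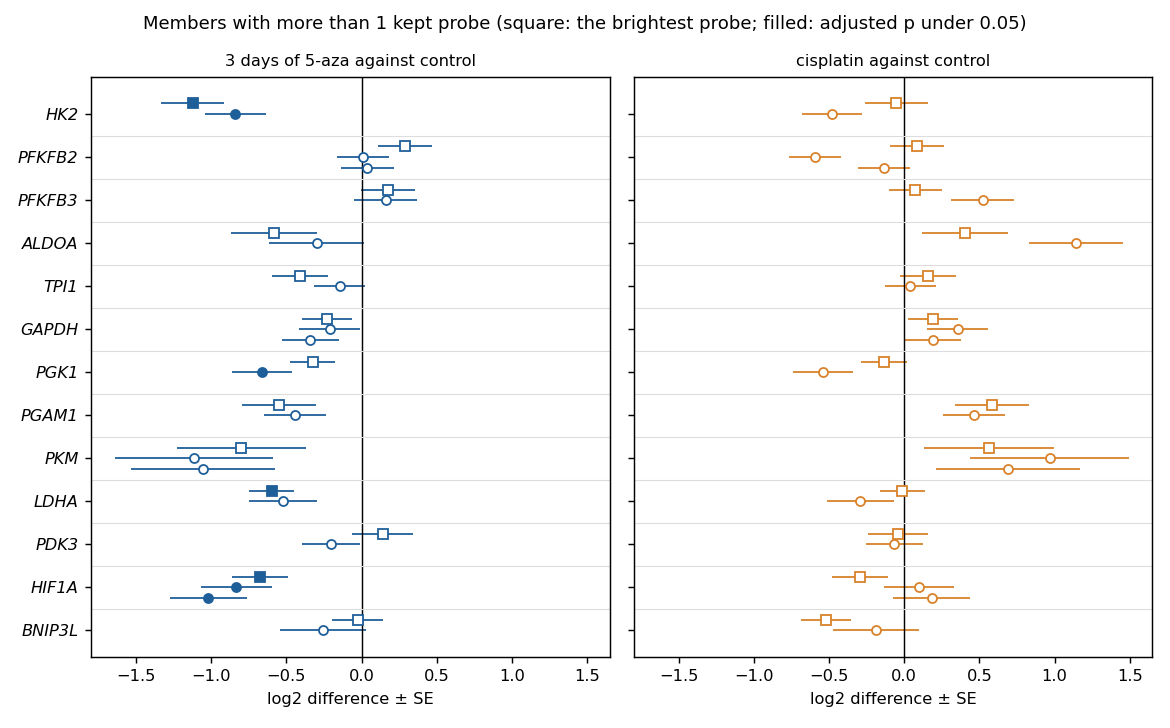
Log2 difference from control ± SE of each kept probe of the 13 members with more than 1, after 3 days of 5-aza and with cisplatin. Squares are the brightest probe of a gene, and filled symbols passed an adjusted p under 0.05 over all kept probes. All kept probes of HK2 and HIF1A, the brighter LDHA probe and the dimmer PGK1 probe are filled and left of 0 after 3 days. No symbol is filled with cisplatin.

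After 1 day of 5-aza no member passed. The count was 0 of 29 in either direction, as it was for all genes (0% higher and 0% lower by limma, with 622 genes and 3 members at an unadjusted p under 0.05). Treated and control arrays did not overlap for VEGFA, PFKFB3, ALDOC and PFKFB4 upward and for GPI, PGAM1, HK2, PFKP, HK1 and ADM downward, where 15.2% of all genes did not overlap upward and 8.99% downward. The largest difference was that of PFKFB4 given above, followed by ALDOC at 0.64 ± 0.32 with arrays of 10.28, 10.30 and 10.28. PFKFB3, a further regulator of phosphofructokinase, stood at 0.39 ± 0.18 and GPI at −0.47 ± 0.21, both with adjusted p = 0.863 (limma).

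Between 1 day and 3 days of 5-aza 4 members were higher and 2 lower at the later time, against 5.82% and 3.17% of all genes. NDRG1 differed by 1.37 ± 0.18, ENO2 by 1.30 ± 0.25, ADM by 0.86 ± 0.15 and BNIP3 by 0.77 ± 0.15, with adjusted p from 0.000315 to 0.0058 (limma). HK2 and HIF1A were both lower by 0.74, at −0.74 ± 0.21 (adjusted p = 0.0417) and −0.74 ± 0.19 (adjusted p = 0.0242, limma). The dimmer HIF1A probes did not pass between the times (adjusted p = 0.103 and 0.163, limma). PFKFB4, which was already above control at 1 day on every array, did not pass between the times (0.74 ± 0.27, adjusted p = 0.118, limma). LDHA was just outside the threshold (−0.50 ± 0.15, adjusted p = 0.0528, limma). These differences share the 3 day arrays with the comparison against control and are not a separate measurement of them.

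With cisplatin ADM was the 1 member called, upward, and 0 were called lower, where 0.916% of all genes were called higher and 0.512% lower. HK1 was next, with 12.54, 12.87 and 13.02 against controls of 12.17, 12.25 and 12.28, which do not overlap (0.58 ± 0.15, adjusted p = 0.0717, limma). SLC2A1, the widespread glucose carrier, read 11.43 and 11.92 on cisplatin replicates 1 and 2 against controls of 10.70, 10.93 and 11.03, with replicate 3 inside the controls (0.56 ± 0.20, adjusted p = 0.144, limma). Control and cisplatin arrays did not overlap for 2 members upward, HK1 and ADM, and for BNIP3L downward, where 6.8% of all genes did not overlap upward and 9.47% downward.

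The cisplatin arrays differed widely among themselves in some enzymes. The SD over these 3 arrays was 1.25 for PKM, 0.833 for ALDOC, 0.727 for PFKFB4, 0.709 for ALDOA and 0.654 for PGAM1, and 0.134 for PGK1 and 0.159 for ENO1. Replicate 3 read 12.45 for PKM, 12.99 for ALDOA and 12.92 for PGAM1, where replicate 1 read 10.02, 11.57 and 11.61 and the controls 10.08 to 10.74, 11.45 to 12.08 and 11.56 to 11.79. In ALDOC the same replicate was the lowest array of the 12, at 8.46. Other probes gave the same spread, with 13.03 and 13.16 on replicates 2 and 3 for the second ALDOA probe against 11.56 on replicate 1. Replicate 3 also had the most detected probes, 19824 against 15435 to 17566 on the other arrays, and its part in these values was not tested.

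Without cisplatin replicate 1 the count with cisplatin went from 1 to 10 members, 7 higher and 3 lower, against 11.2% and 16.3% of all genes. The higher genes were then ADM, PGAM1, HK1, PKM, ALDOA, PFKL and GAPDH, and the lower ones BNIP3L, BNIP3 and LDHB, with adjusted p from 0.000847 for ADM to 0.0481 for PKM (limma). Without replicate 3 the members called were 2, and SLC2A1 joined ADM. The call of ADM itself was lost without any 1 of the 3 controls (adjusted p up to 0.0629) and with only the 6 arrays compared (adjusted p = 0.354, limma), although all 3 cisplatin arrays were above all 3 controls.

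Set against cisplatin directly, 3 days of 5-aza gave 5 members higher and 8 lower, beside 15% of all genes called higher and 10.1% lower. The higher ones were NDRG1 (1.43 ± 0.18), PFKFB4 (1.22 ± 0.27), ENO2 (1.19 ± 0.25), BNIP3 (1.13 ± 0.15) and BNIP3L (0.49 ± 0.17), with adjusted p from 0.000143 to 0.0455 (limma). The lower ones were 7 of the enzymes and a carrier, namely PKM (−1.36 ± 0.43), PGAM1 (−1.13 ± 0.25), HK2 (−1.07 ± 0.21), ALDOA (−0.99 ± 0.28), SLC2A1 (−0.88 ± 0.20), HK1 (−0.66 ± 0.15), LDHA (−0.59 ± 0.15) and TPI1 (−0.57 ± 0.18), with adjusted p from 0.00325 to 0.0374 (limma). The second kept probe did not pass for HK2 (−0.36, adjusted p = 0.23), LDHA (−0.23, 0.505), TPI1 (−0.18, 0.483) or BNIP3L (−0.07, 0.889, limma). The other kept probes of PKM, PGAM1 and ALDOA passed downward. HIF1A was not called by its brightest probe (−0.38, adjusted p = 0.15), while its dimmer probes passed downward (−0.93 and −1.20, adjusted p = 0.0152 and 0.00666, limma). The difference in ADM between the treatments did not pass (−0.18 ± 0.15, adjusted p = 0.433, limma). The cisplatin means of PKM, ALDOA, PGAM1 and HK1 were also above the control means, by 0.56, 0.40, 0.59 and 0.58, of which none passed the test against control. The treatments differed in dose, length and recovery, so drug and schedule cannot be told apart.

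Among 24 other genes known to be raised by low oxygen, 18 were tested, and after 3 days of 5-aza 5 were higher and 2 lower, with a median of 0.39 beside 0.01 for all genes. Of these 18 genes 27.8% were higher and 11.1% lower, against 10.5% and 6.56% of all genes. BHLHE40, a transcriptional repressor of the circadian clock, rose by 1.85 ± 0.21 (adjusted p = 5.2e-05, limma), with 9.85, 9.88 and 9.79 against controls of 7.80, 7.98 and 8.19. STC2, a secreted glycoprotein hormone, rose by 1.16 ± 0.19, CA12, a carbonic anhydrase of the cell surface, by 1.10 ± 0.27, and P4HA2, a collagen prolyl hydroxylase, by 0.98 ± 0.24. P4HA2 was detected on 2 of 3 control arrays, at 6.96 and 7.14. Control replicate 2 read 6.10, under that array's lowest detected signal of 6.447, so the size of this rise is uncertain. The lower ones were the lipoprotein receptor VLDLR (−1.0 ± 0.24) and the mitochondrial adenylate kinase AK4 (−0.88 ± 0.15, adjusted p = 0.00164, limma). AK4 read 9.45, 9.53 and 9.73 after 3 days, 10.50, 10.40 and 10.45 in controls and 11.31, 10.85 and 11.04 with cisplatin, so its treatments lay on opposite sides of the controls.

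Of 12 further genes of oxygen sensing 9 were tested and CREBBP, a histone acetyltransferase that serves HIF among many factors, fell (−1.05 ± 0.25, adjusted p = 0.0113, limma). Of 25 isozymes and carriers outside the members 8 were tested, and ENO3, the enolase of muscle, rose with 9.83, 10.20 and 10.24 against controls of 8.20, 8.69 and 8.50 (1.62 ± 0.28, adjusted p = 0.00135, limma). PDK2, a kinase that inhibits pyruvate dehydrogenase, rose by at least 1.23-fold from control arrays that did not detect it (adjusted p = 0.0319, limma). In the list of gluconeogenesis and glycogen, with 9 of 11 tested, PCK2, the mitochondrial enzyme that makes phosphoenolpyruvate, rose (1.44 ± 0.19) and GBE1, which branches glycogen, fell (−0.79 ± 0.17). Beside these lists, 10.5% of all genes were called higher and 6.56% lower.

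Of 23 tested genes of pyruvate dehydrogenase and the citric acid cycle 0 passed after 3 days by limma, with 5 at an unadjusted p under 0.05, and of 21 of the respiratory chain NDUFA9, a subunit of complex I, was lower (−0.72 ± 0.17, adjusted p = 0.00878, limma). Of 6 pentose phosphate genes 0 passed, with 1 at an unadjusted p under 0.05. With cisplatin DLAT, a subunit of pyruvate dehydrogenase, was lower (−0.86 ± 0.19, adjusted p = 0.0425, limma). Of 6 tested metabolic genes tied to p53, SESN1, a stress-induced inhibitor of mTORC1 signaling, was the 1 called, in both treatments, at 1.46 ± 0.23 after 3 days and 2.36 ± 0.23 with cisplatin. Over all genes 10.5% were called higher and 6.56% lower after 3 days, and 0.916% and 0.512% with cisplatin.

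Markers of cell type moved with the 3 day group. POU5F1, SOX2, NANOG and LIN28A, which mark embryonal carcinoma, were detected on all 12 arrays, and ZFP42 on 0. Of 12 tested markers of embryonal carcinoma 3 fell after 3 days, GDF3 (−2.03 ± 0.18), DNMT3B (−1.45 ± 0.27) and NANOG (−1.31 ± 0.15), and the mean level of the list was 11.64 to 11.75 there against 12.32 to 12.35 in controls, 12.26 to 12.28 after 1 day and 12.01 to 12.28 with cisplatin. Over all genes 6.56% were called lower and 10.5% higher after 3 days. Of 15 markers of differentiated cells with a named probe, 10 were detected on 0 arrays, namely SOX17, GATA4, GATA6, FOXA2, AFP, TBXT, HAND1, KRT7, GATA3 and LUM. PAX6, CGA and DCN were each detected on 1 array. COL1A1, a fibrillar collagen gene, rose by 1.85 ± 0.21, with 8.68, 8.45 and 8.59 after 3 days against controls of 6.79, 6.94 and 6.45. COL1A2, the only other marker of this list that was tested, read 6.68, 6.32 and 6.12 after 3 days against 6.48, 6.11 and 6.29 in controls, which overlap, and was not called. The mean of these 2 genes on each array was 7.36 to 7.68 after 3 days, 6.37 to 6.63 in controls, 6.09 to 6.23 after 1 day and 6.18 to 6.81 with cisplatin, and its rise is that of COL1A1. The part of these markers in the member values was not tested, and in RNA from whole cultures fewer cells of a kind and less RNA per cell cannot be told apart.

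The scaling decided whether some of these differences passed, and none of the called ones changed direction. When each array was scaled by its median instead of quantile normalized, the median of all genes after 3 days was −0.168, and 2 members were called higher and 7 lower, with 36.1% of all calls upward where quantile normalization gave 61.5%. ADM, BNIP3, ENO2 and VEGFA then stood at 0.43, 0.48, 0.64 and 0.68, or 0.60, 0.64, 0.81 and 0.85 above the median of all genes, with adjusted p of 0.0996, 0.0995, 0.173 and 0.0511 (limma). SLC2A1, TPI1, PGK1 and PGAM1 passed downward under this scaling. NDRG1 and PFKFB4 upward and HK2 downward were called under every alternative tried after 3 days.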

How the data were processed

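The authors extracted RNA with Trizol, hybridized biotinylated cRNA to the arrays and exported values with GenomeStudio, version not given in the sources used here. The deposited non-normalized table holds linear intensity for 47231 probes with no background subtracted (lowest 41.6), beside a detection p-value that the authors' software gave for each probe and array. The deposited normalized intensity table was quantile normalized by the authors and served as an alternative. Median intensity per array was 154.3 to 188.4, and 15435 to 19824 probes were detected; with 3 arrays per group their number limits the precision.

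In limma 3.58.1 under R 4.3.3 the intensities were background-corrected by the normal-exponential model (offset 16), quantile normalized and taken to log2, and 19293 probes passed the detection filter. Of all probes 30112 had 1 gene symbol in the platform annotation, updated through RefSeq, 8 had several and 17111 had none and were not used. The brightest kept probe stood for a gene. All 12 arrays entered a linear model of group means in lmFit, moderated by eBayes with 8 residual and 5.64 prior degrees of freedom. Tests were two-sided, with Benjamini-Hochberg adjustment over 11139 genes. The fit was tested on simulated data. Where no array of a group detected a gene, the fold is a bound against each array's lowest detected signal.

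The members and lists were chosen with earlier results of these data known. All members are named, those called with each array's value, and up to 4 called genes in each direction of every other list, those with the largest change. Alternatives were other scalings, offsets, detection filters, probe summaries, array weights, a replicate block, fits to fewer groups and leaving out each array.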

Additional observations from a re-analysis of the deposited data

Results flagged for a closer look

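For 6 members the difference from control after 3 days of 5-aza differed from that after 1 day, by the test of the difference itself in limma, adjusted over all genes. Both differences use the same controls, so these are the values of the comparison between 3 days and 1 day given above. NDRG1 differed by 1.37 on the log2 scale (adjusted p = 0.000315), ENO2 by 1.30 (0.00431), ADM by 0.86 (0.00288) and BNIP3 by 0.77 (0.00581), with the 3 day arrays higher in 3 of 3. HIF1A differed by −0.74 (0.0242) and HK2 by −0.74 (0.0417), with the 3 day arrays lower in 3 of 3. The dimmer HIF1A probes were lower as well but did not pass (−0.70 and −0.66, adjusted p = 0.103 and 0.163, limma). The second HK2 probe passed (−0.81, adjusted p = 0.0289, limma). With median scaling ADM, BNIP3, ENO2 and HK2 no longer passed in this comparison (adjusted p = 0.0697, 0.156, 0.0585 and 0.0579, limma), and NDRG1 and HIF1A did. The groups have 3 arrays each, so no array was tested as an outlier.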

How the results depend on the processing

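The 29 calls of members over the 5 comparisons were recomputed under the alternatives, and none changed direction. Of these calls 7 passed under every alternative, NDRG1 in 3 comparisons, HK2 in 2, and PFKFB4 and BNIP3 in 1 each, and 22 were lost under 1 or more. After 3 days of 5-aza against control, with 9 members called, the count was 5 at an adjusted p under 0.01, 16 with only the 6 arrays compared, 17 with array weights, 18 without the cisplatin arrays in the fit, and 6 to 14 leaving out an array, with 14 without cisplatin replicate 3. Between 3 days and 1 day, with 6 called, it was 13 with only the 6 arrays, 13 with array weights, 11 without the cisplatin arrays, and 4 to 9 leaving out an array. After 1 day, with 0 called, array weights and the fit without cisplatin arrays each called 1, PFKFB4 (adjusted p = 0.0357 and 0.0406), and leaving out an array 0. With cisplatin, with 1 called, it was 0 at an adjusted p under 0.01, 0 with only the 6 arrays, 2 with the deposited normalized values, 2 with no background correction, and 0 to 10 leaving out an array. It was 0 without control replicate 1, 2 or 3, 10 without cisplatin replicate 1 and 2 without cisplatin replicate 3. Between 3 days and cisplatin, with 13 called, it was 8 at an adjusted p under 0.01, 4 with only the 6 arrays, and 8 to 17 leaving out an array, with 8 without 3 day replicate 3. Beyond the spread of the cisplatin arrays given above, the cause was not tested. The least stable calls were BNIP3L and TPI1 against cisplatin, lost under 14 and 12 alternatives, and HK2 between the times, lost under 11. After 3 days ENO2 was lost under 5 alternatives, and VEGFA, HIF1A and LDHA under 4 each. Same-numbered arrays deviated with correlations of −0.518 to 0.223, over 0.1 in 2 of 18 pairs. The fit was not paired by number, and these correlations cannot tell whether same-numbered samples were handled together. With a replicate block the counts were 9, 5, 0, 1 and 12 in the order above. For all genes the counts ranged from 989 to 4262 after 3 days, 519 to 3753 between the times, 0 to 127 after 1 day, 18 to 3059 with cisplatin and 816 to 4557 between 3 days and cisplatin. With median scaling the share of upward calls fell from 64.7% to 31.7% between the times and from 59.9% to 21.8% against cisplatin, where the median of all genes was −0.173 and −0.203, and it rose from 64.2% to 93.5% with cisplatin against control. Signal over background limits VEGFA, the fold of NDRG1 with its controls near the lowest detected signal, and the 4 members whose probe was not kept.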
